A study of Sus scrofa with 13 samples.

Results

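The nuclear transport receptors and nuclear pore proteins of pig muscle were described by the level of 39 genes, out of the 25322 genes in the count tables. A gene was taken when its symbol was XPO, IPO, KPNA, KPNB, TNPO or NUP followed by a digit. The symbols gave 19 transport receptors, namely 5 exportins, 9 receptors of the importin beta family and 5 importin alpha adaptors, and 20 pore proteins (nucleoporins). Of the 39 genes, 15 were named only by the reference and not by the symbols in the authors' tables. KPNA4, KPNA6, IPO9, IPO13, NUP58, NUP88 and NUP210L were not matched in the count tables and were not analysed here.

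RNA was sequenced from the longissimus lumborum, the loin muscle, of 13 female pigs aged 6 months. The pigs belonged to the Hampshire and Pietrain breeds, which are both sire lines. The groups were Hampshire with high loin weight (pigs 8, 9 and 10), Hampshire with low loin weight (pigs 1, 2 and 3), Pietrain with high loin weight (pigs 1, 2, 6 and 7) and Pietrain with low loin weight (pigs 3, 5 and 8). They are called high Hampshire, low Hampshire, high Pietrain and low Pietrain here, and values per pig are given in that order of pig numbers. All high Pietrain pigs of the labels were used, although the study's table of loin weights counts fewer pigs in that group and does not say which, and leaving out any 1 of them also gave 0 DEGs in Pietrain among the genes described here. High and low are the extremes of loin weight within a breed, chosen after dissection from unrelated animals kept alike and slaughtered at a common body weight, and a group says nothing of when in growth the difference arose. Breed cannot be told apart from anything that was handled breed by breed.

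Proteins and RNAs above a modest size cross the nuclear envelope through the nuclear pore complex, a ring of nucleoporins whose central channel is filled with flexible phenylalanine-glycine repeats. Importins bind cargo in the cytoplasm and exportins bind it in the nucleus, and the small GTPase RAN, loaded with GTP in the nucleus, releases cargo from the former and fastens it to the latter. Muscle fibres hold many nuclei in one cytoplasm, so that transcription factors, splicing factors and ribosomal proteins made in the shared cytoplasm depend on these receptors to reach each nucleus.

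Levels are given as CPM, the count scaled by library size, after TMM normalization over all 13 pigs. CPM is not divided by transcript length, so levels were compared between pigs and not between genes. The total count was between 11312755 and 20134612 per pig, and pigs of 1 group differed by more than sampling noise in 15 of 15 pairs. In the 38 genes tested, a gene was called a differentially expressed gene (DEG) when edgeR's quasi-likelihood test gave an adjusted p-value under 0.05 (Benjamini-Hochberg over all genes tested) and the levels differed by 1.2-fold or more. The standard error of a log2 fold change is abbreviated SE. Muscle fibre markers were high in every pig, their sum being 143584 to 307040 CPM for the 9 of 15 markers that matched. KPNA7, an importin alpha best known from oocytes and embryos, was the 1 gene that failed the filter on low counts. It had 0 to 18 counts in a Hampshire pig and 0 to 2 in a Pietrain pig, and its count of 0 in every low Pietrain pig allows up to 3 counts in each. Fitted without that filter, it was called between the breeds at low loin weight, higher in Hampshire, and in no other comparison.

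Across the 4 groups, the receptors were low in the high Hampshire pigs and the nucleoporins less so. The 39 genes took 0.0807% to 0.109% of all counts in the high Hampshire pigs and 0.146% to 0.160% in the low Hampshire pigs. In the Pietrain pigs the share was 0.165% to 0.227% with high and 0.192% to 0.216% with low loin weight. The median level of the 18 receptors, as log2(CPM + 0.5) relative to each gene's mean over the 13 pigs, was -0.45, -0.62 and -0.75 in the high Hampshire pigs. It was 0.12, -0.10 and -0.03 in the low Hampshire pigs, 0.27, 0.19, 0.40 and 0.10 in the high Pietrain pigs and 0.28, 0.39 and 0.33 in the low Pietrain pigs. Every high Hampshire pig was thus below the other 10 pigs in the receptors' median. For the 20 nucleoporins the median was -0.01, -0.25 and -0.17 in the high Hampshire pigs against -0.01, -0.17 and -0.07 in the low Hampshire pigs, and these groups overlapped.

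**Figure D1:**
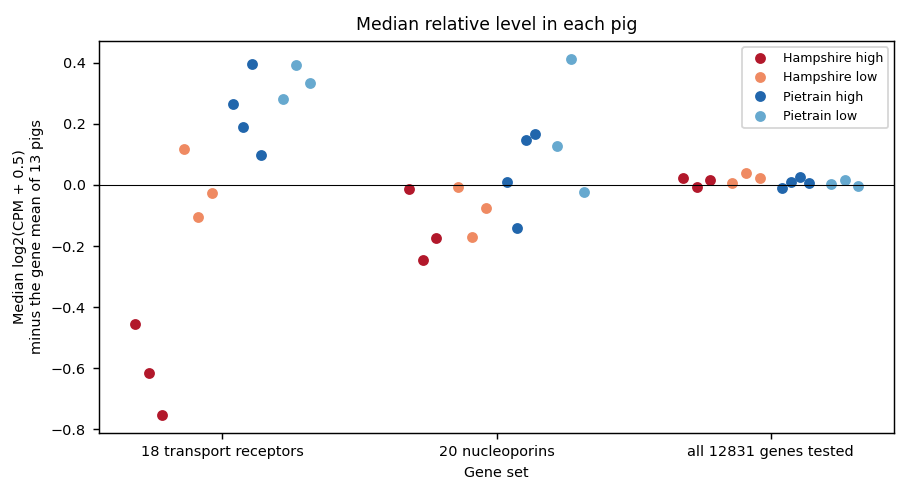
Median relative level of the 18 receptors, the 20 nucleoporins and all 12831 genes tested, with 1 point for each of the 13 pigs and colours for the 4 groups. The y axis is log2(CPM + 0.5) minus the gene's mean over the 13 pigs. The receptors' median is -0.45 to -0.75 in the high Hampshire pigs and -0.10 to 0.40 in the others, while the median of all genes stays near 0 in each pig.

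**Figure D2:**
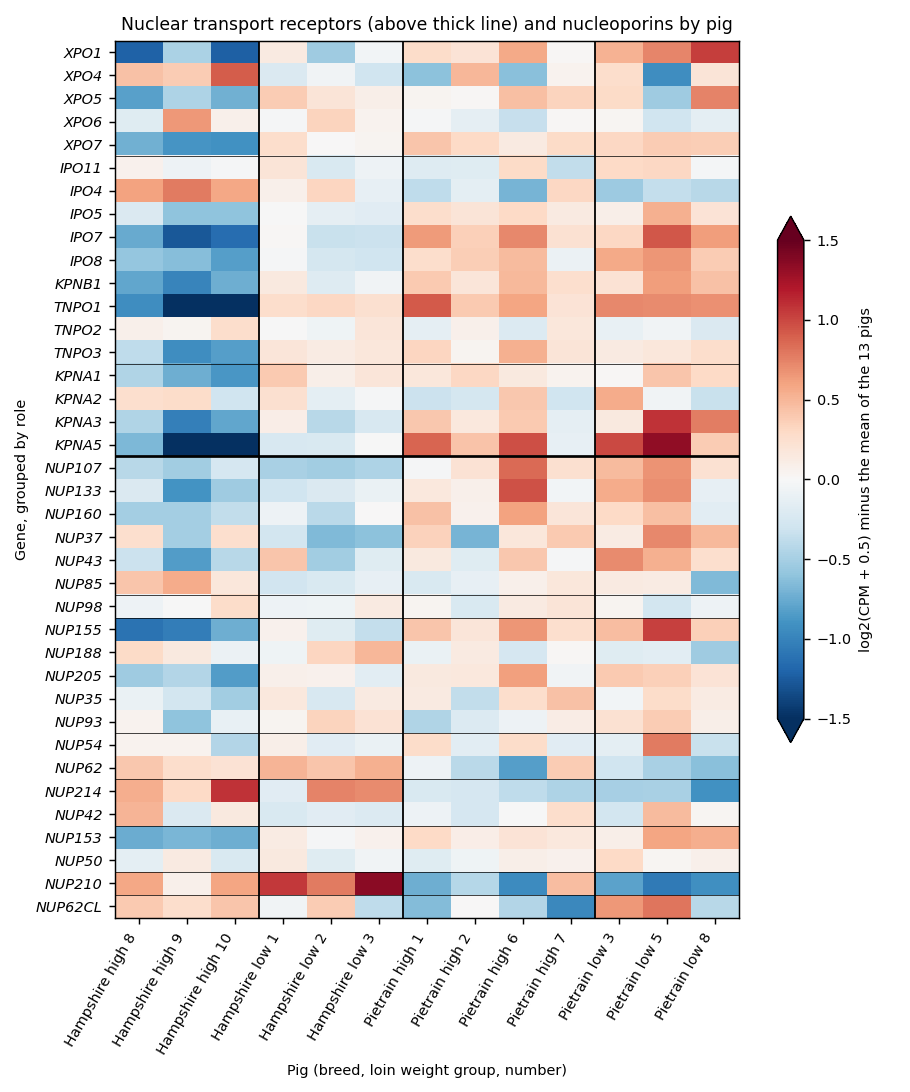
Level of each of the 38 genes tested in each pig, as log2(CPM + 0.5) minus the gene's mean over the 13 pigs, from blue (lower) to red (higher), with values beyond 1.5 drawn in the end colours. Thin lines part the role groups, the thick line parts receptors from nucleoporins, and vertical lines part the 4 groups of pigs. XPO7, IPO7, KPNB1, TNPO1 and KPNA1 are blue in all 3 high Hampshire pigs, and XPO4, IPO4 and NUP85 are red there.

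In Hampshire, the comparison asked which of these genes differ with loin weight inside the breed. Of 38 genes tested, 14 were DEGs (36.8%), 11 lower and 3 higher in the high Hampshire pigs. Of all 12228 genes tested in this breed 26.6% were DEGs, 14.6% lower and 12.0% higher, so the share of lower DEGs was 28.9% in these genes and the share of higher DEGs 7.89%. The receptors held 9 lower and 2 higher DEGs of 18, with a median log2 fold change of -0.69. The nucleoporins held 2 lower and 1 higher DEG of 20, with a median of -0.18, and the median of all genes tested was 0.03. The values of the high and low pigs did not overlap in 19 of the 38 genes (16 lower, 3 higher), against 45.9% of all genes tested (23.5% lower, 22.4% higher).

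Of the 5 exportins, XPO1, XPO5 and XPO7 were DEGs with lower levels in the high Hampshire pigs and XPO4 a DEG with higher levels. XPO1 (ENSSSCG00000028228; chromosome 3, 84163385 to 84182474 on Sscrofa10.2), the main carrier of proteins with a leucine-rich export signal, was at 36.8, 61.8 and 36.5 CPM in the high Hampshire pigs and at 94.5, 59.5 and 83.7 CPM in the low Hampshire pigs. High pig 9 lay just above low pig 2, so the groups overlapped. The log2 fold change was -0.82 (SE 0.258; adjusted p = 0.0447 by edgeR's quasi-likelihood test). An exact permutation test on log2(CPM + 0.5), two-sided, gave p = 0.2, where 3 pigs against 3 cannot go below 0.1.

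XPO7 (ENSSSCG00000009611; chromosome 14, 6629338 to 6721983), an exportin of broad cargo range, was at 28.5, 25.3 and 25.0 CPM in the high Hampshire pigs and at 57.0, 47.6 and 48.5 CPM in the low Hampshire pigs. Each high pig was far below each low pig, and the log2 fold change was -0.96 (SE 0.155, adjusted p = 0.0049). XPO5 (ENSSSCG00000001679; chromosome 7, 44112974 to 44151883), which carries microRNA precursors out of the nucleus, was at 12.7, 16.4 and 13.5 CPM against 29.7, 26.0 and 24.2 CPM. These groups also lay apart, with a log2 fold change of -0.91 (SE 0.178, adjusted p = 0.00878).

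XPO4 (ENSSSCG00000009276; chromosome 11, 230115 to 288910), which exports SMAD3 among other cargoes, went the other way. Its level was 17.3, 16.6 and 24.2 CPM in the high Hampshire pigs and 10.8, 12.2 and 10.2 CPM in the low Hampshire pigs, a log2 fold change of 0.81 (SE 0.206, adjusted p = 0.0219). XPO6, the exporter of actin with profilin, was at 11.3 to 20.5 CPM in the high and 12.7 to 16.4 CPM in the low Hampshire pigs, and its log2 fold change was 0.09 (SE 0.240, adjusted p = 0.804).

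In the importin beta family of 9 receptors, TNPO1, TNPO3, IPO7 and KPNB1 fell and IPO4 rose in the high Hampshire pigs. TNPO1 (ENSSSCG00000027293; chromosome 16, 53235306 to 53288151), the transportin that imports hnRNP proteins, had the lowest fold change of the 38 genes. It was at 9.80, 3.63 and 4.92 CPM in the high Hampshire pigs and at 23.1, 23.9 and 22.8 CPM in the low Hampshire pigs, so that the low pigs were close together and all above the high pigs. The log2 fold change was -1.92 (SE 0.318, adjusted p = 0.00532), a 3.79-fold lower level. Its close paralog TNPO2 (ENSSSCG00000013726) was at 22.7, 22.1 and 25.9 CPM in the high and 21.4, 20.5 and 24.5 CPM in the low Hampshire pigs, with a log2 fold change of 0.09 (SE 0.163, adjusted p = 0.704).

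TNPO3 (ENSSSCG00000016572; chromosome 18, 20642466 to 20732596) imports the serine- and arginine-rich splicing factors. It was at 32.3, 22.0 and 23.6 CPM in the high Hampshire pigs and at 47.9, 46.1 and 47.6 CPM in the low Hampshire pigs, a log2 fold change of -0.87 (SE 0.175, adjusted p = 0.00994). IPO7 (ENSSSCG00000028886; chromosome 9, 12423 to 49487), which imports ribosomal proteins and the glucocorticoid receptor, was at 114, 79.8 and 87.3 CPM in the high and 196, 154 and 155 CPM in the low Hampshire pigs. Its log2 fold change was -0.85 (SE 0.192, adjusted p = 0.0147), and in both genes the groups lay apart.

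KPNB1 (ENSSSCG00000017514; chromosome 12, 23785575 to 23815916) is importin beta itself, the receptor that carries the importin alpha adaptors and their cargo through the pore. Its level was 83.2, 71.9 and 86.1 CPM in the high Hampshire pigs and 158, 125 and 138 CPM in the low Hampshire pigs. The highest high pig was below the lowest low pig, and the log2 fold change was -0.80 (SE 0.168, adjusted p = 0.0114). IPO4 (ENSSSCG00000002000; chromosome 7, 80381676 to 80389841), an importer of histones and of the vitamin D receptor, was higher instead, at 27.0, 30.6 and 26.6 CPM against 18.6, 22.1 and 16.2 CPM. Its log2 fold change was 0.56 (SE 0.172, adjusted p = 0.042).

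The other 3 receptors of the family did not pass. IPO5, an importer of ribosomal proteins, was at 149 to 196 CPM in the high and 202 to 226 CPM in the low Hampshire pigs (log2 fold change -0.36, adjusted p = 0.137). IPO8, the closest relative of IPO7, was at 9.65 to 11.5 CPM against 14.1 to 17.3 CPM (log2 fold change -0.51, adjusted p = 0.059). In both genes the groups lay apart although the test was not passed, whereas IPO11 overlapped (log2 fold change 0.01, adjusted p = 0.968).

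Importin alpha adaptors read the classical nuclear localization signal and hand cargo to KPNB1. KPNA1 (ENSSSCG00000028475; chromosome 13, 147681195 to 147711773) was at 90.8, 75.0 and 67.9 CPM in the high Hampshire pigs and at 165, 132 and 142 CPM in the low Hampshire pigs, with a log2 fold change of -0.92 (SE 0.173, adjusted p = 0.00811). KPNA5 (ENSSSCG00000004262; chromosome 1, 50174010 to 50208430), of the same adaptor subfamily, was at 12.1, 4.81 and 5.43 CPM against 16.6, 16.7 and 19.7 CPM, with a log2 fold change of -1.24 (SE 0.322, adjusted p = 0.0236). In KPNA5, high pig 8 was more than double the other high pigs and still below every low pig.

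The remaining adaptors did not pass. KPNA3 was at 123 to 184 CPM in the high and 188 to 269 CPM in the low Hampshire pigs, which did not overlap, and its log2 fold change was -0.57 (SE 0.211, adjusted p = 0.0737). KPNA2, the adaptor known for high levels in dividing cells, was at 5.94 to 9.08 CPM against 6.65 to 8.87 CPM, with a log2 fold change of 0.05 (SE 0.232, adjusted p = 0.879). The markers of dividing cells summed to 20.6 to 33.8 CPM in the high and 23.5 to 26.5 CPM in the low Hampshire pigs over the 10 of 12 that matched. Reads of close paralogs such as KPNA1 and KPNA5 or TNPO1 and TNPO2 may have been split between them in the counting, and the counted models of KPNA2 (1843 bp, on the scaffold GL895745.1), KPNA3 (7612 bp) and NUP62 (1599 bp) are short.

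**Figure D3:**
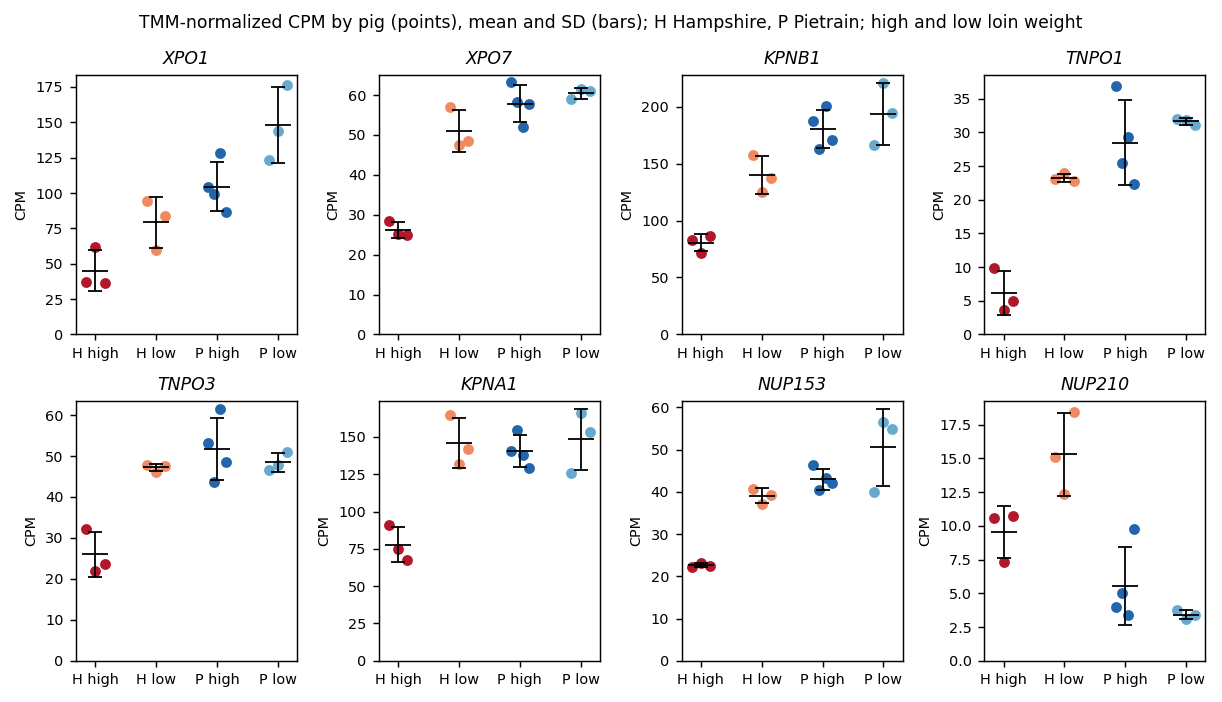
TMM-normalized CPM of 8 genes in each pig (points), with the group's mean and SD (bars), for high and low Hampshire (H) and high and low Pietrain (P) pigs. Each y axis starts at 0. XPO7, KPNB1, TNPO1, TNPO3, KPNA1 and NUP153 have all 3 high Hampshire pigs below the other 10 pigs, XPO1 overlaps between high and low Hampshire pigs, and NUP210 is high in the low Hampshire pigs.

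Among the nucleoporins, 3 of 20 were DEGs in Hampshire, beside 26.6% of all genes tested, and they came from different parts of the pore. NUP153 (ENSSSCG00000026034; chromosome 7, 14095627 to 14168650), a protein of the nuclear basket to which importins dock, was at 22.3, 23.2 and 22.4 CPM in the high Hampshire pigs and at 40.8, 37.1 and 39.3 CPM in the low Hampshire pigs. Both groups were tight and lay apart, with a log2 fold change of -0.79 (SE 0.143, adjusted p = 0.00699). NUP50, which binds NUP153 in the basket, had a log2 fold change of -0.06 (SE 0.173, adjusted p = 0.826).

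NUP155 (ENSSSCG00000016845; chromosome 16, 23672791 to 23741895), a scaffold protein of the inner ring, was at 9.12, 9.63 and 12.0 CPM in the high and at 21.2, 17.8 and 15.7 CPM in the low Hampshire pigs. The log2 fold change was -0.83 (SE 0.203, adjusted p = 0.0192). The other 4 inner ring proteins, NUP35, NUP93, NUP188 and NUP205, had log2 fold changes below 0 that did not pass, from -0.69 for NUP205 (adjusted p = 0.0745) to -0.16 for NUP188 (adjusted p = 0.575).

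NUP85 (ENSSSCG00000017207; chromosome 12, 6035178 to 6066162), 1 of the 6 measured proteins of the Y complex that forms the outer rings, was at 13.6, 15.1 and 11.4 CPM in the high and at 8.20, 8.50 and 9.24 CPM in the low Hampshire pigs. Its log2 fold change was 0.62 (SE 0.177, adjusted p = 0.0329). The others of these 6 did not pass, and their log2 fold changes ran from -0.51 (NUP43) to 0.64 (NUP37). NUP54 and NUP62 of the central channel, NUP214 and NUP42 of the cytoplasmic face, the mobile NUP98, the membrane protein NUP210 and NUP62CL did not pass either, NUP210 being the nearest to it (log2 fold change -0.67, adjusted p = 0.0561).

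Leaving out 1 pig at a time, XPO5, XPO7, KPNB1, TNPO1, TNPO3, KPNA1, NUP153 and NUP155 were DEGs in 6 of 6 fits. XPO1 was a DEG in 2 of 6 and had an adjusted p of 0.0948 without high pig 8, 0.139 without high pig 10, 0.0991 without low pig 1 and 0.128 without low pig 3. IPO7 was lost without high pig 10 (adjusted p = 0.0549). KPNA5 (without high pigs 9 or 10 or low pig 3) and XPO4 (without high pig 10 or low pigs 1 or 3) held in 3 of 6, with an adjusted p of up to 0.0845 and 0.0899. IPO4 held in 1 of 6, without low pig 2, and NUP85 in 1 of 6, without high pig 10, with an adjusted p of up to 0.155 and 0.101. In all, 9 to 14 genes were DEGs in these fits, the lowest count being 9 without high pig 10 or without low pig 3. The share of all genes called fell as well. It was 26.6% with no pig left out, 14% without high pig 10 and 9.8% without low pig 3. The 3 higher calls also depended on the fit. In 1 fit over all 13 pigs there were 11 lower and 0 higher DEGs (19.8% of all genes called). Without a filter on low counts XPO4 was the 1 higher DEG, beside 11 lower (16.1% of all genes called). The same held for XPO4 with at least 10 counts required in every pig, beside 15 lower (28.5% of all genes called).

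Markers of other cell types moved with loin weight in Hampshire, where 12.0% of all genes tested were higher DEGs and 14.6% lower. Macrophage markers (9 of 10 matched) summed to 160.2 to 231 CPM in the high and 53.9 to 133 CPM in the low Hampshire pigs, and 3 of 9 were DEGs, all higher. For fibroblast markers (7 of 8 matched) the sums were 2024 to 5311 CPM and 791 to 1758 CPM, with 3 of 7 higher. Endothelial markers (6 of 8 matched) summed to 213 to 254 CPM against 146 to 191 CPM, with 2 of 6 higher, and adipocyte markers (3 of 7 matched) to 13.8 to 47.7 CPM against 4.27 to 9.62 CPM, with 2 of 3 higher. Of 9 muscle fibre markers, CKM and MYH7 were higher and NEB and MYH1 lower. Blood markers (6 of 7 matched) summed to 86.3 to 242 CPM against 47.1 to 175 CPM, satellite cell markers (3 of 4 matched) to 34.7 to 45.9 CPM against 42.3 to 46.3 CPM, and none of these or of the dividing cell markers was a DEG. The test covered 3 blood and 8 dividing cell markers. No matched marker was at 0 in all pigs. Their part in the levels of the transport genes was not tested, and in whole muscle fewer cells of a type cannot be told apart from less RNA per cell.

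Gene span also moved with the fold changes. Across 9945 genes with coordinates, the log2 fold change in Hampshire was lower for longer genes (Spearman's rho -0.386, a description across genes of the same pigs). The median span was 18949 bp over all of these genes, 36744 bp for the receptors and 51414 bp for the nucleoporins. With this trend taken out of each pig's values, 14 genes were DEGs, 2 higher and 12 lower, of which 12 were among the 14 above. Of all genes tested in that fit 23.5% were DEGs, against 26.6% without the removal. NUP155 (adjusted p = 0.0833) and IPO4 (adjusted p = 0.161) were no longer called, and KPNA3 and NUP62 were, both lower. The median log2 fold change moved from -0.35 to -0.18, over the 38 and 37 genes tested. Calls that were kept had smaller fold changes in XPO7 (-0.61), TNPO3 (-0.52) and NUP153 (-0.47), among other lower genes. The 2 higher calls, XPO4 (1.09) and NUP85 (0.77), had larger ones.

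In Pietrain, edgeR called 0 of the 38 genes and 0.0% of the 12065 genes tested in this breed, and DESeq2 called 0 of the 38 genes too. At an unadjusted p under 0.05 by edgeR there were 2 of 38 genes (5.26%), XPO1 and NUP62CL, against 3.3% of all genes. The median log2 fold change was -0.06 for the 38 genes and 0.02 for all genes tested. The high and low pigs did not overlap in 1 gene, NUP214, which was higher in the high pigs (6.44 to 7.67 CPM against 4.57 to 6.33 CPM). Of all genes tested, 4.59% did not overlap and 2.08% did so with the high pigs higher.

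XPO1 was at 104, 99.2, 128 and 86.9 CPM in the high Pietrain pigs and at 123, 144 and 176 CPM in the low Pietrain pigs. High pig 6 was above low pig 3, and the log2 fold change was -0.47 (SE 0.195, adjusted p = 0.939 by edgeR's quasi-likelihood test). The exact permutation test gave p = 0.114, where 4 pigs against 3 cannot go below 0.0571. NUP62CL was at only 0.25 to 0.978 CPM in the high and 0.605 to 2.06 CPM in the low Pietrain pigs (log2 fold change -1.37, SE 0.594, adjusted p = 0.939).

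XPO7, TNPO1 and TNPO3, which fell in Hampshire, did not pass in Pietrain. XPO7 was at 63.2, 58.2, 52.0 and 57.9 CPM in the high and 58.9, 61.5 and 61.1 CPM in the low Pietrain pigs (log2 fold change -0.03, SE 0.162). TNPO1 was at 36.9, 25.4, 29.3 and 22.3 CPM against 32.0, 31.8 and 31.1 CPM (log2 fold change -0.12, SE 0.202). TNPO3 was at 53.1, 43.7, 61.4 and 48.5 CPM against 46.5, 47.8 and 50.9 CPM (log2 fold change 0.13, SE 0.178). In these 3 genes the low Pietrain pigs were close together and lay inside the range of the high pigs.

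KPNB1 was at 162 to 200.2 CPM in the high and 166 to 220.3 CPM in the low Pietrain pigs (log2 fold change -0.07, SE 0.170), and KPNA1 at 129 to 155 CPM and 126 to 166 CPM (log2 fold change -0.05, SE 0.166). XPO5 was at 23.0 to 31.1 CPM against 15.6 to 38.3 CPM, and NUP153 at 40.3 to 46.3 CPM against 40.0 to 56.6 CPM. None of these 4 passed, and all overlapped. NUP210, the pore membrane glycoprotein known to rise when muscle cells differentiate in culture, was at 3.98, 5.03, 3.37 and 9.74 CPM in the high and 3.77, 3.08 and 3.43 CPM in the low Pietrain pigs, with high pig 7 above all others (log2 fold change 0.73, SE 0.397, adjusted p = 0.939).

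**Figure D4:**
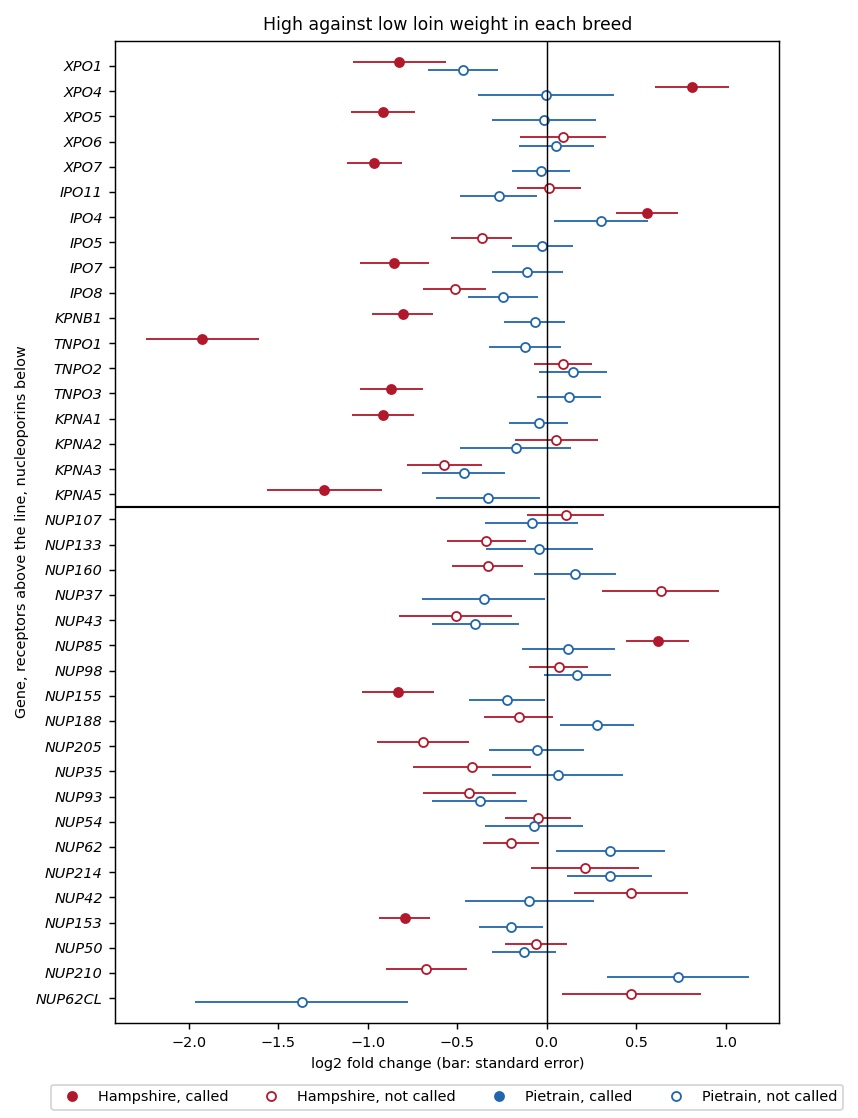
Log2 fold change (x axis) of high against low loin weight for the 38 genes tested, in Hampshire (red) and Pietrain (blue), with bars of 1 standard error. Filled points are DEGs. The 14 filled points are all Hampshire ones, 11 below and 3 above 0, and most Pietrain points lie within 0.5 of 0.

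The difference between the breeds in the loin weight effect was tested in 1 fit over all 13 pigs. TNPO1, XPO7 and TNPO3 had a lower fold change in Hampshire than in Pietrain, and they were 3 of 38 genes (7.89%) called in this test, against 5.9% of all 12831 genes (4.22% in this direction). The difference on the log2 scale was -1.76 for TNPO1 (SE 0.393, adjusted p = 0.019), -0.89 for XPO7 (SE 0.206, adjusted p = 0.0228) and -0.96 for TNPO3 (SE 0.248, adjusted p = 0.0383). All 3 are receptors, but the share called was near that of all genes, so no role group is set apart by these calls. KPNA1 (-0.83, adjusted p = 0.0535) and KPNB1 (-0.70, adjusted p = 0.0896) came next and did not pass, and for XPO1 the difference was -0.32 (SE 0.336, adjusted p = 0.633).

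TNPO1 and XPO7 passed in 13 of 13 fits that left out 1 pig. TNPO3 passed in 6 of 13, with an adjusted p of up to 0.0736 without high Hampshire pigs 9 or 10, any low Hampshire pig, or low Pietrain pigs 5 or 8. Without high Pietrain pig 6 the count rose to 5 genes, and the share over all genes from 5.9% to 8.21%. With the span trend removed TNPO1 alone was called (adjusted p = 0.0231), XPO7 having an adjusted p of 0.122 and TNPO3 of 0.0995, beside 4.73% of all genes called. DESeq2 called 5 genes, adding KPNA1 and KPNB1, beside 9.54% of all genes.

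Over both breeds together, with breed as a term, edgeR called 0 of the 38 genes and 0.0% of all genes tested, while DESeq2 called 6, all lower with high loin weight, and 6.98% of all genes. The 6 were XPO1, XPO7, TNPO1, KPNA3, NUP153 and NUP155. At an unadjusted p under 0.05 by edgeR there were 14 of 38 genes (36.8%) against 22.6% of all genes. XPO1 had the lowest p of these genes, with a log2 fold change of -0.65 (SE 0.173, adjusted p = 0.115), and it was lower in the mean of the high pigs in both breeds. NUP153 followed (-0.49, SE 0.136, adjusted p = 0.116). This comparison uses the same pigs as the comparisons within each breed.

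Between the breeds at low loin weight, 11 of 38 genes were DEGs (28.9%), 8 lower and 3 higher in Hampshire, against 17.9% of all 12831 genes tested (10.1% lower, 7.84% higher). The receptors gave 5 lower DEGs of 18, namely XPO1, IPO7, IPO8, KPNA3 and KPNA5. The nucleoporins gave 3 lower DEGs of 20, NUP107, NUP37 and NUP155, and 3 higher, NUP210, NUP214 and NUP62.

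NUP210 (ENSSSCG00000011610; chromosome 13, 78614180 to 78704945) had the largest fold change of the 38 genes in this comparison. It was at 15.1, 12.3 and 18.5 CPM in the low Hampshire pigs and at 3.77, 3.08 and 3.43 CPM in the low Pietrain pigs, a log2 fold change of 2.16 (SE 0.354, adjusted p = 0.00775). The high Hampshire pigs, at 10.6, 7.36 and 10.7 CPM, were between them, below every low Hampshire pig.

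NUP214 (ENSSSCG00000005711; chromosome 1, 305131025 to 305241772), a docking site for XPO1 on the cytoplasmic face, was higher in Hampshire in both loin weight groups. Its level was 7.96, 15.5 and 15.1 CPM in the low Hampshire pigs against 6.24, 6.33 and 4.57 CPM in the low Pietrain pigs (log2 fold change 1.17, SE 0.281, adjusted p = 0.0187). With high loin weight it was 13.5, 11.3 and 19.7 CPM against 7.67, 7.55, 6.81 and 6.44 CPM (log2 fold change 1.06, SE 0.255, adjusted p = 0.00406). Neither pair of groups overlapped. NUP62, which carries phenylalanine-glycine repeats in the central channel, was at 15.9 to 17.2 CPM in the low Hampshire and 7.46 to 9.44 CPM in the low Pietrain pigs (log2 fold change 0.99, adjusted p = 0.0242).

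NUP107 (ENSSSCG00000000486; chromosome 5, 35775636 to 35824593), a Y complex protein, was lower in Hampshire at both loin weights, at 5.14, 5.00 and 5.25 CPM in the low Hampshire pigs against 10.5, 12.2 and 8.80 CPM in the low Pietrain pigs (log2 fold change -1.03, SE 0.244, adjusted p = 0.0184). With high loin weight it was at 5.00 to 6.13 CPM against 7.30 to 13.8 CPM (log2 fold change -0.80, SE 0.231, adjusted p = 0.0116), and this call was lost with the span trend removed (log2 fold change -0.43, adjusted p = 0.118). IPO7 was at 154 to 196 CPM in the low Hampshire and 241 to 369 CPM in the low Pietrain pigs (log2 fold change -0.85, adjusted p = 0.0206), and IPO8 at 14.1 to 17.3 CPM and 23.0 to 27.8 CPM (log2 fold change -0.75, adjusted p = 0.0212). The groups lay apart in all 3 genes.

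XPO1 was at 59.5 to 94.5 CPM in the low Hampshire and 123 to 176 CPM in the low Pietrain pigs (log2 fold change -0.90, SE 0.247, adjusted p = 0.0276). KPNA1, XPO5 and TNPO3, which fell with high loin weight in Hampshire, had log2 fold changes of -0.02, -0.04 and -0.04 between the breeds at low loin weight, and none passed. Leaving out low Hampshire pig 2 or 3 or low Pietrain pig 5 or 8 left 1 of the 11 calls, NUP210, which was called in 13 of 13 fits. In these 4 fits the share called over all genes fell from 17.9% to 0.828%, 3.78%, 1.23% and 0.842%. NUP37 and KPNA5 were called in only 5 of 13 fits. They were also lost without low Hampshire pig 1 or high Pietrain pig 1, NUP37 without high Hampshire pigs 8 or 10 and KPNA5 without high Pietrain pig 2 or low Pietrain pig 3, with an adjusted p of up to 0.168 and 0.161. NUP37 was lost with the span trend removed as well (adjusted p = 0.0631). Of 9 macrophage markers 6 were higher in the low Hampshire pigs, with sums of 53.9 to 133 CPM against 19.5 to 30.0 CPM, and 2 of 3 satellite cell markers were higher (42.3 to 46.3 CPM against 19.9 to 24.5 CPM). Of 9 muscle fibre markers 2 were lower, and no other marker was called, where 7.84% of all genes were higher DEGs and 10.1% lower. Their part in the breed differences was not tested.

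Between the breeds at high loin weight, 20 of 38 genes were DEGs (52.6%), 18 lower and 2 higher in Hampshire, against 46.8% of all genes tested (24.2% lower, 22.6% higher). Of the 18 receptors 12 were lower and IPO4 was higher, with a median log2 fold change of -0.93, and of the 20 nucleoporins 6 were lower and NUP214 higher, with a median of -0.07. The median of all genes was 0.02. With the span trend removed there were 24 DEGs, 16 lower and 8 higher, against 48.2% of all genes, but only 16 of the 20 calls were among them. XPO5 (adjusted p = 0.066), NUP107, NUP133 and NUP160 were no longer called.

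TNPO1 had the lowest fold change here too, at 3.63 to 9.80 CPM in the high Hampshire pigs against 22.3 to 36.9 CPM in the high Pietrain pigs (log2 fold change -2.21, SE 0.287, adjusted p = 6.3e-05). KPNA5 was at 4.81 to 12.1 CPM against 18.1 to 38.8 CPM (4-fold lower, SE 0.356 on the log2 scale, adjusted p = 0.000581). IPO7 was at 79.8 to 114 CPM against 228 to 321 CPM (log2 fold change -1.55, SE 0.206, adjusted p = 7.65e-05). In each of these genes, every high Hampshire pig was below every high Pietrain pig.

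The same held for NUP155 (9.12 to 12.0 CPM against 23.1 to 32.2 CPM, log2 fold change -1.38, adjusted p = 0.000229), XPO1 (36.5 to 61.8 CPM against 86.9 to 128 CPM, log2 fold change -1.22, adjusted p = 0.00109) and KPNB1 (71.9 to 86.1 CPM against 162 to 200.2 CPM, log2 fold change -1.17, adjusted p = 0.000102). Of the Y complex, NUP107, NUP133 and NUP160 were lower in the high Hampshire pigs, NUP133 with an adjusted p of 0.0692 when high Hampshire pig 9 was left out. None of these 3 passed with the span trend removed, where the log2 fold change was -0.43 for NUP107 (adjusted p = 0.118), -0.50 for NUP133 (adjusted p = 0.115) and -0.45 for NUP160 (adjusted p = 0.0793). IPO4 was at 26.6 to 30.6 CPM against 10.7 to 22.0 CPM (log2 fold change 0.85, SE 0.215, adjusted p = 0.00538). Macrophage markers were higher in the high Hampshire pigs in 9 of 9, with sums of 160.2 to 231 CPM against 21.3 to 61.7 CPM, and fibroblast markers in 5 of 7, with sums of 2024 to 5311 CPM against 896 to 2419 CPM, beside 22.6% of all genes. Endothelial markers were higher in 3 of 6 (213 to 254 CPM against 117 to 192 CPM), adipocyte markers in 1 of 3 (13.8 to 47.7 CPM against 4.93 to 14.3 CPM) and satellite cell markers in 1 of 3 (34.7 to 45.9 CPM against 15.96 to 40.5 CPM). Blood markers were higher in 1 of 3 tested (86.3 to 242 CPM against 36.3 to 157 CPM), markers of dividing cells in 1 of 8 tested (20.6 to 33.8 CPM against 17.4 to 34.6 CPM), and of 9 muscle fibre markers 3 were higher and 1 lower (211299 to 307040 CPM against 143584 to 208411 CPM). Their part in the result was not tested.

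**Figure D5:**
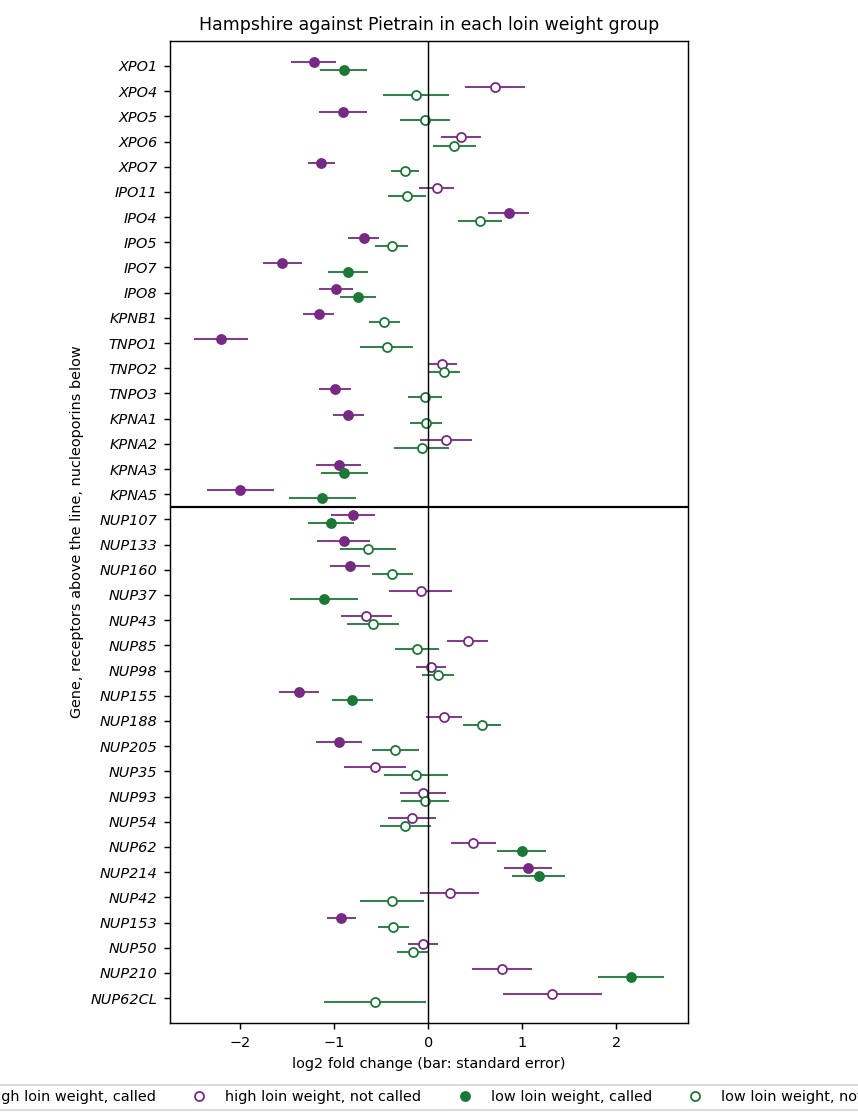
Log2 fold change (x axis) of Hampshire against Pietrain for the 38 genes tested, with high (purple) and low (green) loin weight, and bars of 1 standard error. Filled points are DEGs. With high loin weight 18 filled points lie below 0 and 2 above, and NUP210 with low loin weight is the point farthest to the right.

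Seen over the 4 groups, the high Hampshire pigs had the lowest mean in 22 of the 38 genes tested (57.9%), against 38.1% of all genes tested. In 13 of the 38 (34.2%) each high Hampshire pig was below all other 10 pigs, against 16.4% of all genes. The 13 were IPO5, IPO7, IPO8, KPNA1, KPNA3, KPNA5, KPNB1, TNPO1, TNPO3, XPO7, NUP153, NUP155 and NUP205, of which 10 are receptors. The commonest order of the means, low Pietrain above high Pietrain above low Hampshire above high Hampshire, was found in 16 of 39 genes. XPO1, KPNB1 and IPO7 were among them, and so was NUP50, whose highest mean was only 1.16 times its lowest. The reverse order was found in 5, and the share of all genes with either order was not computed. For XPO1 the means were 148 ± 26.8, 105 ± 17.2, 79.2 ± 17.9 and 45.0 ± 14.5 CPM (SD; n = 3, 4, 3 and 3), and each group's range overlapped that of its neighbour in that order.

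The wider transport machinery was examined in 4 lists. Of 16 genes measured for the RAN cycle and other transport factors, 2 were lower and 2 higher DEGs in Hampshire, where 14.6% of all genes tested were lower and 12.0% higher DEGs (26.6% in all). XPOT, the exporter of transfer RNA, was at 7.16 to 10.4 CPM in the high and 24.0 to 31.0 CPM in the low Hampshire pigs (log2 fold change -1.66, adjusted p = 0.00215), and RANBP6, a relative of IPO5, at 6.58 to 10.6 CPM against 16.9 to 22.0 CPM (log2 fold change -1.11, adjusted p = 0.00975). RANGRF and SNUPN, the adaptor for small nuclear ribonucleoproteins, rose, with log2 fold changes of 0.95 and 0.72. The list's median log2 fold change was 0.08, with NUTF2 counted under both ENSSSCG00000025301 and ENSSSCG00000030295.

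Of 11 genes measured for other pore proteins, 4 were lower DEGs and 0 higher, beside 14.6% and 12.0% of all genes. They were AHCTF1, which seeds new pores on chromatin (log2 fold change -1.01, adjusted p = 0.0049), TPR, the filament of the nuclear basket (-0.87, adjusted p = 0.00704), RANBP2, the filament of the cytoplasmic face (-0.77, adjusted p = 0.0109), and TMEM33 (-1.23, adjusted p = 0.0189). TPR was at 23.2 to 30.7 CPM in the high and 47.2 to 49.4 CPM in the low Hampshire pigs, and the groups lay apart. The median of the list was -0.24, with SEH1L counted under both ENSSSCG00000003673 and ENSSSCG00000030252.

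Of 17 messenger RNA export genes 2 were DEGs, beside 26.6% of all genes. THOC2 was lower (log2 fold change -0.91, adjusted p = 0.00647) and PCID2 higher (0.47, adjusted p = 0.0417), and the list's median was 0.18. SARNP and POLDIP3, next by p-value, did not pass (adjusted p = 0.055 and 0.0618). Of 13 genes tested for the nuclear lamina and envelope, 4 were lower DEGs and 0 higher, beside 14.6% and 12.0% of all genes. They were SUN1, SUN2, LEMD3 and MATR3, with log2 fold changes of -1.14, -0.97, -1.53 and -0.57 and a median of -0.43. In Pietrain none of the genes tested in these 4 lists was a DEG. In the test of the difference between breeds, XPOT (-1.17, adjusted p = 0.0405) and SUN1 (-1.31, adjusted p = 0.0159) were called. They were 1 of 16 and 1 of 13 genes tested in their lists, beside 5.9% of all genes. None of the 11 other pore proteins or the 17 messenger RNA export genes was called. XPOT and SUN1 were not followed through the alternatives.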

How the data were processed

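The authors sequenced TruSeq libraries of loin muscle RNA single-end in 4 technical runs and aligned the reads to Sscrofa10.2. The authors deposited raw, unnormalized counts for each Ensembl gene, with 1 column for each of the 13 pigs. FastQC, STAR, RSEM and DESeq2 are named in the submitters' processing notes without a role, and the annotation release is not given in the sources used here. The authors' result tables hold fold changes and p-values that were not used. Gene symbols (13168 of 25322 genes, with the reference names) and coordinates (37 of the 39 genes) were read from them.

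Each breed was fitted alone, and all 13 pigs in 1 fit where a comparison uses both breeds, in R 4.3.3 with edgeR 4.0.16 (TMM, filterByExpr by group, glmQLFit, glmQLFTest). The standard error was taken as the size of the log2 fold change over the square root of F. Thresholds for DEGs were 0.05 for the adjusted p-value and 1.2 for the fold. The pseudocount was 0.5. Scripts were tested on simulated counts.

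The genes and lists were chosen with earlier results of these data known. Values per pig were planned for XPO1, KPNB1 and the 5 genes with the smallest p-value in each direction of a comparison, and for other lists the 4 genes with the smallest p-value in Hampshire. Further values, and the genes followed through the alternatives, were added after the values were seen. The alternatives were DESeq2 1.42.0, edgeR with the size factors of DESeq2, no filter, at least 10 counts in every pig, no fold threshold, removal of a gene span trend (per-pig lowess), 1 fit over all pigs and leaving out each pig in turn.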

Additional observations from a re-analysis of the deposited data

Results flagged for a closer look

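KPNA2 was at 9.99 CPM in high Pietrain pig 6 and at 5.86 to 6.08 CPM in the other 3 high Pietrain pigs. For this gene, the value of pig 6 stood apart by Dixon's criterion (gap of 0.946 of the range). NUP133 was at 22.2 CPM in the same pig and at 10.9 to 12.6 CPM in the others (gap of 0.851 of the range). Chance marks about 1 in 20 groups by this criterion, and only the high Pietrain group, with 4 pigs, was examined. KPNA2 and NUP133 were the only genes marked among the 39 described here, which is close to that rate. The share of all genes marked was not computed, so these marks do not set pig 6 apart from its group.

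The loin weight effect differed between the breeds for 3 of 38 genes by the interaction test in edgeR, all receptors. This share of 7.89% was near the 5.9% called over all genes tested. The effect in Hampshire minus that in Pietrain was -1.76 on the log2 scale for TNPO1 (adjusted p = 0.019), -0.89 for XPO7 (adjusted p = 0.0228) and -0.96 for TNPO3 (adjusted p = 0.0383). For all 3, the 3 high Hampshire pigs were below all other pigs, as in 16.4% of all genes tested. TNPO3 was called in only 6 of 13 fits that left out 1 pig. With the span trend removed, XPO7 (adjusted p = 0.122) and TNPO3 (adjusted p = 0.0995) were not called.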

How the results depend on the processing

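The number of DEGs among the 38 genes stayed within 1.5 times its value, outside fits that left out a pig, in Hampshire (11 to 16), in Pietrain (0) and between the breeds at low (11 to 13) and high loin weight (20 to 24). For the difference between breeds it was 3 (5.9% of all genes called), but 5 with DESeq2 (9.54%) and 1 with the span trend removed (4.73%). For both breeds together it was 0, but 6 with DESeq2. Leaving out each pig gave 9 to 14 in Hampshire, 0 in Pietrain, 2 to 5 for the difference between breeds (5 without high Pietrain pig 6), 0 to 1 over both breeds (1 without the same pig), 1 to 13 at low loin weight (1 without low Hampshire pig 2 or 3 or low Pietrain pig 5 or 8) and 19 to 23 at high loin weight. Except in the comparison within Pietrain, the share of all genes called varied between these fits too, and the cause was not tested.

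Of 371 single values recomputed outside these fits, 338 kept their direction and side of the threshold, 12 lost the threshold, 14 gained it and 7 changed sign, all 7 with the span trend removed and none of them called. In Pietrain the changed values were 0.038 for XPO4, 0.0080 for XPO5 and 0.0063 for XPO7. Between the breeds at low loin weight they were 0.10 for KPNA1, 0.16 for TNPO3, 0.041 for XPO4 and 0.11 for XPO5.

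Leaving out 1 pig, log2 fold changes that changed sign ranged in Pietrain from -0.22 to 0.032 for IPO7, -0.12 to 0.018 for KPNA1, -0.13 to 0.012 for KPNB1, -0.11 to 0.29 for NUP85, -0.32 to 0.23 for XPO4, -0.31 to 0.32 for XPO5 and -0.052 to 0.036 for XPO7. Between the breeds at low loin weight they ranged from -0.10 to 0.089 for KPNA1, -0.31 to 0.068 for NUP85, -0.049 to 0.043 for TNPO3, -0.44 to 0.13 for XPO4 and -0.32 to 0.33 for XPO5. None of these was called in any of the fits. No paired analysis was possible because the high and low pigs of a breed share no number and numbers shared between breeds name different animals. With 3 or 4 pigs per group and single genes at a few CPM, such as NUP62CL, NUP35 and NUP42, small differences were not detectable.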
